A study of Homo sapiens with 44 samples.

Results

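The deposited matrix of chromatin accessibility held 407383 peaks, each 500 bases from start to end, and gave each a gene and a class. Of these, 27348 (6.71%) carried the class Exonic in their deposited name, and these Exonic-class peaks are described here across all groups of the study. Accessibility was read by ATAC-seq, in which a transposase cuts and tags open DNA, in the human colon fibroblast line Ccd18-Co. The 44 libraries formed 11 groups of 4, namely unstimulated cells and cells given TNF, IFNγ, IFNα, oncostatin M (OSM), TGF-β1, IL-13, IL-6, IL-22 or IL-17A at 10 ng/ml or IL-1β at 0.1 ng/ml, all in serum-free medium. All groups come from a single line grown in plate wells, and nothing in the labels says that the replicates were separate cultures, so p-values measure only the spread between these libraries. In the plots IL1B, IFNA, IFNG and TGFB1 stand for IL-1β, IFNα, IFNγ and TGF-β1.

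Exons are usually read as transcript sequence, but a nucleosome-free stretch can also lie in them. Such stretches occur in first exons, where the open promoter reaches into the transcribed part, and in internal or last exons, where an enhancer can overlap coding or untranslated sequence. Gene bodies that are strongly transcribed also tend to be more accessible along their length. TNF and IL-1β signal to NF-κB and AP-1, the interferons to STAT and IRF factors, OSM and IL-6 through gp130 to STAT3, IL-13 to STAT6 and TGF-β1 to SMAD factors.

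The class label was checked against GENCODE v44 exons. The centre of 26540 peaks (97% of the class, against 11% of all peaks) lay in an annotated exon. Of the Exonic-class peaks, 8519 were centred on coding sequence, 7659 on a 3′ UTR, 4371 on a 5′ UTR and 5991 on a non-coding exon. A last exon lay under 11406 centres, a first exon under 7294 and an internal exon under 6922. The deposited gene was the gene of that exon for 53.4% of members, so the deposited gene is added below for named members where it is another one. A start site lay within 1 kb of 49.7% of Exonic-class peaks, against 81.8% of Promoter-class, 15.9% of Intronic-class and 6.01% of Distal-class peaks. The median GC content was 52.3%, between 55.7% for Promoter-class and 44.3% for Intronic-class peaks. Members centred on a 5′ UTR had a median coverage of 3.98 per megabase (Mb) of peak coverage over the 44 libraries, against 0.905 for coding and 0.838 for 3′ UTR members.

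Peak coverage came to between 149 and 823 Mb per library (median 416 Mb), and the shallowest library, IL-6 replicate 4, had no coverage in 20.6% of Exonic-class peaks. Promoter-class peaks were listed for 9 of 12 fibroblast markers, and not for DCN, PDGFRA or THY1. The highest such peak of each gene had a median of 8.93 per Mb in unstimulated cells. All Promoter-class peaks, counted singly, had a median of 2.89, and LUM (0.903) and VIM (2.12) lay below it. For other cell types, again by the highest peak, they were listed for 1 of 6 epithelial markers (KRT8, 4.55 per Mb) and 2 of 6 immune markers (0.789 and 1.61 per Mb). All 6 endothelial markers had them (0.538 to 3.54 per Mb), and none was listed for EPCAM, CDH1, PTPRC or CD3E.

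The windows of 4 members in or beside coding exons are shown first, because these members are among the leading responses to an interferon or TGF-β1 described below and hold one of the motifs counted there. The sequences are hg38, plus strand, and capitals mark the motif: for the first 3 the interferon-stimulated response element (ISRE), searched as a pair of GAAA 2 bases apart or its reverse complement, and for the last the AP-1 motif TGANTCA. The windows lie at chr11:108070125-108070244 (CUL5, reaching from the coding exon into the intron), chr15:43638737-43638856 (CATSPER2, intron beside the exon), chr3:146521326-146521408 (PLSCR1, intron beside the exon) and chr2:27638344-27638463 (GPN1, intron beside the exon).
CUL5: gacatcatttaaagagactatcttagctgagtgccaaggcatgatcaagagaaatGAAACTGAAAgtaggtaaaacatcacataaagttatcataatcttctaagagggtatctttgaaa
CATSPER2: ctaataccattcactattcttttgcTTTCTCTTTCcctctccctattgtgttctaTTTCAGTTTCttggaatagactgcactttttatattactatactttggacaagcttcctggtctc
PLSCR1: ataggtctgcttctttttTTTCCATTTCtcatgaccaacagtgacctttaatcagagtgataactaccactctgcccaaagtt
GPN1: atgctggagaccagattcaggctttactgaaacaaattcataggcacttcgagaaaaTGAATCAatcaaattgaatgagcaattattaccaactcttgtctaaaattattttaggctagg

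Exonic-class peaks gave from 179 to 1256 calls for 7 of the 10 cytokines and from 11 to 30 for IL-6, IL-22 and IL-17A. A peak is called where limma's adjusted p-value, computed over all 407162 tested peaks of every class, was under 0.05, and 27335 of the 27348 members were tested. OSM gave 1256 called members (4.59%, against 4.35% of all tested peaks), with 1056 raised (3.86% against 3.29%) and 200 lowered (0.732% against 1.06%). TGF-β1 gave 1147 (4.2% against 3.72%), with 177 raised (0.648% against 1.14%) and 970 lowered (3.55% against 2.58%). TNF gave 859 (3.14% against 4.06%), with 503 raised (1.84% against 2.59%) and 356 lowered (1.3% against 1.47%). IL-1β gave 775 (2.84% against 3.14%), with 349 raised (1.28% against 1.44%) and 426 lowered (1.56% against 1.7%). For all 4 cytokines the share of called members was within 1 percentage point of that of all tested peaks.

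IFNγ gave 429 called members (1.57%, the same share as the 1.57% of all tested peaks), with 378 raised (1.38% against 1.36%) and 51 lowered (0.187% against 0.211%). IFNα gave 179 (0.655% against 0.62%), with 102 raised (0.373% against 0.339%) and 77 lowered (0.282% against 0.281%). IL-13 gave 308 (1.13% against 1.3%), with 201 raised (0.735% against 0.604%) and 107 lowered (0.391% against 0.698%). IL-22 gave 30 (0.11% against 0.0457%), all raised (background 0.0437%; 0.00196% of all peaks were lowered). IL-6 gave 23 (0.0841% against 0.042%), with 14 raised (background 0.016%) and 9 lowered (background 0.026%). IL-17A gave 11 (0.0402% against 0.0273%), all raised (background 0.0243%, with 0.00295% lowered). No member was called lowered under IL-22 or IL-17A by limma. An unadjusted p-value under 0.05, which some unchanged peaks reach by chance, was held by 2299 and 1929 of the 27335 members in either direction. Of all 407162 tested peaks 29806 and 25582 held one. Over the 11 groups together, 5772 members differed (limma's moderated F; 21.1% against 21.4% of all tested peaks).

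Some counts depended on single libraries by more than 1.5 times. OSM gave 785 calls without OSM replicate 1 and 691 without OSM replicate 2, and TGF-β1 gave 759 without unstimulated replicate 2. IFNα gave 116 and 102 calls without unstimulated replicates 2 and 3 and 110 without IFNα replicate 1. IL-13 gave 198 and 180 without unstimulated replicates 3 and 4 and 198 without IL-13 replicate 3. IL-6 gave 8, 8 and 6 without unstimulated replicates 2, 3 and 4, 42 and 44 without IL-6 replicates 1 and 2, and 5 without IL-6 replicate 4. IL-22 gave 9 to 17 without any one library of its own or of unstimulated replicates 2, 3 and 4, and IL-17A gave 0 to 7 without any one unstimulated library or IL-17A replicate 1, 2 or 3 and 17 without IL-17A replicate 4.

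**Figure D1:**
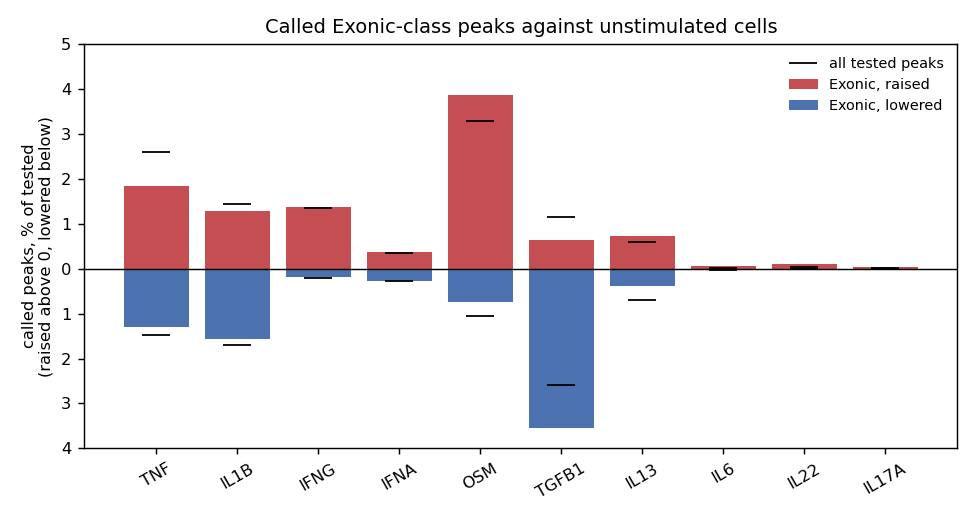
Percentage of tested Exonic-class peaks called raised (above 0) or lowered (below 0) for each cytokine against unstimulated cells, with horizontal ticks for all tested peaks. OSM called raised members at 3.86% and TGF-β1 lowered members at 3.55%, while IL-6, IL-22 and IL-17A stay near 0.

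The split between raised and lowered members depended on the scaling for OSM and TGF-β1. Under OSM 84.1% of called members were raised, against 67.5% with library totals, 64.5% with median-of-ratios factors, 66.3% with a composition factor from peaks covered in every library, 67.5% with loess offsets and 87.5% with a GC correction. Under TGF-β1 15.4% were raised, against 29.4%, 40.7%, 38.4%, 47.8% and 18.4% in the same order. OSM also moved the median of all tested peaks by -0.13 on the log2 scale, whereas the median Exonic-class peak moved by -0.03. Between IL-1β and TNF the share higher under IL-1β was 19.3%, and 32% with loess offsets. For IFNγ the raised share stayed between 80.8% and 88.1% under the 6 scalings.

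Called members differed between cytokines in the size of the change as well. On the log2(coverage per Mb + 0.5) scale the median absolute change of called members was 1.24 for IFNγ, 1.09 for TNF, 1 for IL-1β, 0.997 for IFNα, 0.986 for IL-13, 0.906 for OSM and 0.757 for TGF-β1. Called peaks of all classes had medians of 1.32, 1.13, 1.07, 1.06, 1.04, 0.984 and 0.916 for IFNγ, TNF, IL-1β, IFNα, IL-13, OSM and TGF-β1. A change of at least 2 on this scale was reached by 63 members under IFNγ, 31 under TNF, 23 under IL-1β, 8 under OSM, 5 under IFNα, 4 under TGF-β1 and 2 under IL-13. Among all 407162 tested peaks 777, 892, 264, 134, 63, 118 and 49 called ones reached it, in the same order, so there TNF came before IFNγ. The OSM and TGF-β1 calls thus had a smaller median change than the IFNγ calls, among members as among all peaks.

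The position of a member in the transcript went with different cytokines. Under TNF 3.89% of 3′ UTR members were called, against 2.4% of coding and 2.29% of 5′ UTR members. IL-1β had the same order between 3′ UTR and coding members, at 3.36% and 2.21%. Under OSM and TGF-β1, 5′ UTR members were called at 6.5% and 7.55%, above the other exon parts, with coding members at 3.66% and 2.28%. Of the 808 members centred outside any annotated exon OSM called 11.3% and TGF-β1 13.2%. Of the TGF-β1 calls on 5′ UTR members 313 were lowered and 17 raised, and of the OSM calls 268 were raised and 16 lowered. These splits come from the main fit, and for both cytokines the split of all called members depended on the scaling. Within 1 kb of a start site lay 28 of the 30 IL-22 calls, 17 of the 23 IL-6 calls and 9 of the 11 IL-17A calls. Parts differ in coverage, and calling rose with it: under TNF 0.392% of members with a mean below 0.5 per Mb were called, 2.51% of those from 1 to 2 per Mb and 7.95% of those at 4 per Mb or more, where Intronic-class peaks reached 16.4%. The part of coverage in the differences between transcript parts was not tested.

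**Figure D2:**
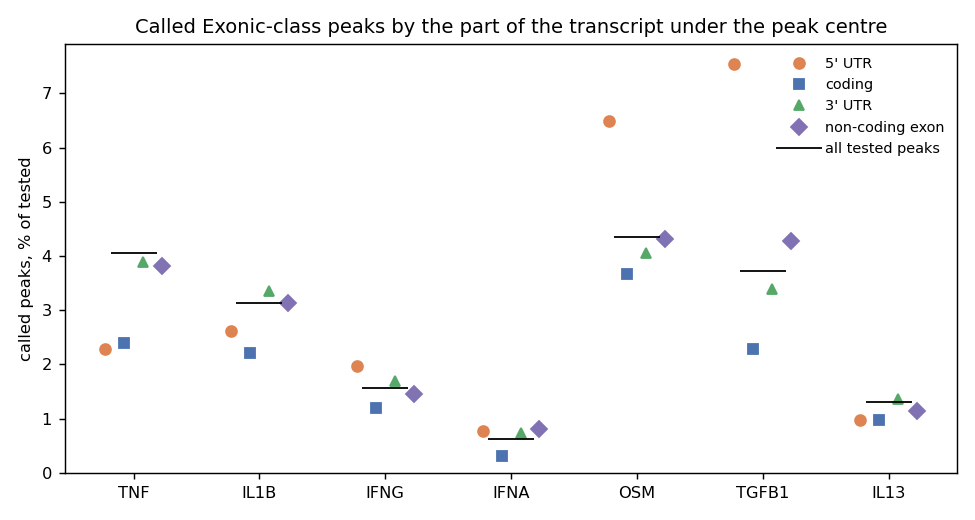
Percentage of tested Exonic-class peaks called for 7 cytokines, by the part of the transcript under the peak centre, with horizontal ticks for all tested peaks. Among the exon parts the 5′ UTR members stand highest for TGF-β1 (7.55%) and OSM (6.5%), and the coding members lie below the 3′ UTR members for all 7 cytokines.

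The Exonic-class share of each library's peak coverage was compared with that of unstimulated cells (9.13% ± 0.0493, SD, n = 4) by a two-sided exact permutation test, in which 4 against 4 libraries cannot give a p-value below 0.0286. It was higher for OSM (9.38% ± 0.037), IL-13 (9.38% ± 0.0603), IL-6 (9.3% ± 0.0307) and IL-22 (9.25% ± 0.0696), and lower for TGF-β1 (8.59% ± 0.0989) and TNF (8.93% ± 0.102), each at this smallest exact p (0.0476 after Benjamini-Hochberg adjustment over the 10 cytokines). In each of these 6 groups all 4 libraries lay on one side of the 4 unstimulated ones. Without members within 1 kb of a start site none of the 10 differences passed adjustment. Those of TNF, OSM and IL-22 still had the smallest exact p (0.0952 after adjustment). This p-value passes adjustment only where enough of the 10 cytokines reach it, so failing to pass does not show that a difference was lost. The differences of OSM, TGF-β1, IL-22 and IFNγ changed sign.

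The letters of called members differed by cytokine and direction. The ISRE letters stood in 42.6% of the members raised by IFNγ and 37.3% of those raised by IFNα, against 7.49% of all tested Exonic-class peaks and 9.11% of all tested peaks of the same length. The AP-1 letters TGANTCA were in 43.5% of members raised by TNF, 39.5% of those raised by IL-1β and 47.5% of those raised by TGF-β1, against 17.7% of Exonic-class and 25.7% of all peaks. IL-13 showed the other direction, with AP-1 letters in 46.7% of lowered and 14.4% of raised members. The NF-κB motif was in 27% of members raised by TNF and 22.1% of those raised by IL-1β, against 13.1% of Exonic-class and 9.34% of all peaks, and in 5.62% and 6.34% of those lowered. It was also in 8 of the 30 members raised by IL-22 (26.7%). The STAT form TTCNNNGAA was in 15.2% of members raised by OSM, near the 14.5% of all Exonic-class peaks. The AP-1 and STAT forms read the same on both strands, and the ISRE was searched in both orientations. The NF-κB motif was searched only as GGG[AG]NN[CT][CT]CC (brackets give alternative letters), without its reverse complement. Its shares therefore leave out matches that are present only in the other orientation. The motifs can overlap, and a match describes letters only.

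**Figure D3:**
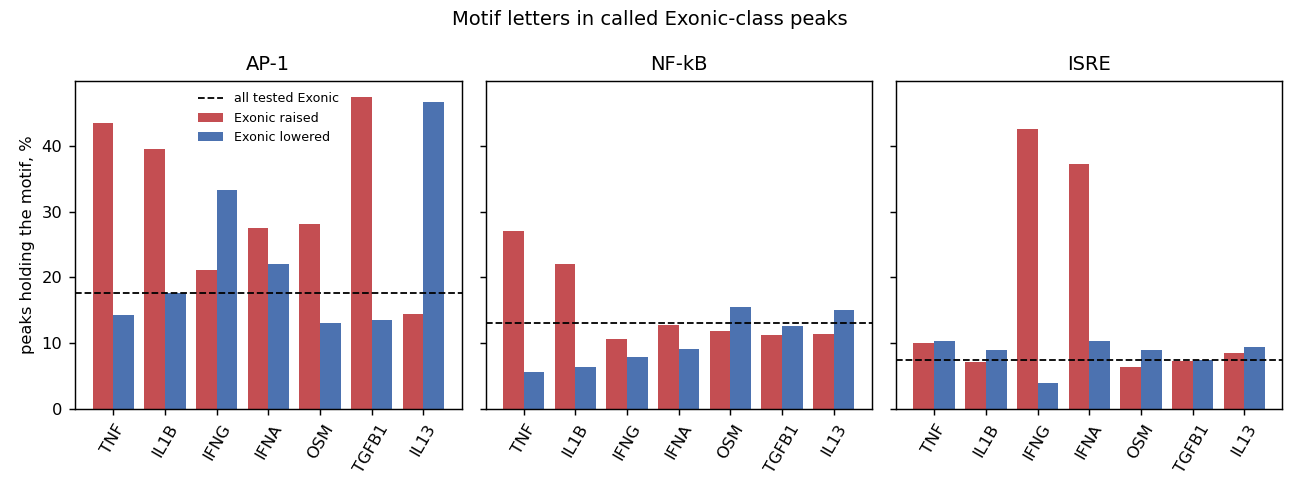
Percentage of called Exonic-class peaks holding the AP-1, NF-κB or ISRE letters, for members raised or lowered by 7 cytokines, with a dashed line for all tested Exonic-class peaks. The ISRE bars stand above the line for members raised by IFNγ (42.6%) and IFNα (37.3%), and AP-1 is high among members raised by TNF, IL-1β and TGF-β1 and among those lowered by IL-13.

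TNF and IL-1β raised members at chemokine and NF-κB genes. Of 161 tested members at genes of an NF-κB and inflammatory list, TNF raised 41 and lowered 3, and IL-1β raised 33 and lowered 3 (27.3% and 22.4% called, with a median log2 change of 0.43 and 0.23 over the list against -0.03 and 0.01 over all tested peaks, of which 4.06% and 3.14% were called). IL-17A called none of them by limma, with 11 at an unadjusted p under 0.05. The leading members of each comparison, here and below, were picked among called members whose compared libraries did not overlap, so the lack of overlap describes the choice and is no result of its own. The strongest member lay in the 3′ UTR of CXCL8, the neutrophil-attracting chemokine IL-8, at chr4:73742531-73743031. Its coverage was 0, 0, 0.0479 and 0.251 per Mb in unstimulated libraries, 20.3, 17.5, 17.1 and 14.5 under TNF and 22.3, 12, 11.9 and 13.3 under IL-1β. The unstimulated libraries were all under the level of 3 reads and the stimulated ones did not overlap with them, so TNF coverage was at least 31.4-fold and IL-1β coverage at least 26.9-fold higher (log2 change 4.97 ± 0.39 and 4.71 ± 0.39, SE; limma adjusted p = 2.24e-25 and 3.08e-23). All 4 Exonic-class peaks of CXCL8, 1 coding and 3 on 3′ UTR sequence, were raised by both.

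A member in the 3′ UTR of FBLN1, which encodes the matrix protein fibulin-1 (deposited as LINC01589, chr22:45600735-45601235), had 0.648, 0.76, 0.53 and 0 per Mb in unstimulated libraries. TNF gave 15.4, 15.6, 16.1 and 16.1 per Mb and IL-1β 12.4, 8.91, 9.4 and 7.16. The TNF libraries were above all IL-1β libraries (log2 change 4.13 ± 0.36 and 3.4 ± 0.36; limma adjusted p = 2.29e-21 and 4.7e-15). In the opposite direction, a member in the 3′ UTR of FSTL1, a secreted follistatin-like glycoprotein (deposited as LRRC58, chr3:120394491-120394991), fell from 5.19, 5.29, 6.1 and 2.05 per Mb to 1.49, 0.29, 0.431 and 0.833 under TNF. Under IL-1β it was 0.0356, 1.28, 1.94 and 0.327 per Mb (log2 change -2.04 ± 0.31 for both; limma adjusted p = 8.49e-08 and 1.15e-07).

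Both cytokines also lowered members of the immediate early gene NR4A1, an orphan nuclear receptor, and of COL1A1, which encodes the main chain of type I collagen. Of 113 members at AP-1 and immediate early genes TNF lowered 11 (9.73%, against 1.47% of all tested peaks) and raised 3 (2.65% against 2.59%), and IL-1β lowered 9 (7.96% against 1.7%) and raised 1 (0.885% against 1.44%). At the NR4A1 locus, deposited as ATG101, TNF lowered 7 members and IL-1β 6, so neighbouring peaks of a single locus made up many of these calls. Coding members of ATF3 (deposited as FAM71A) and FOSL1 (deposited as CCDC85B), both AP-1 partners, rose under TNF (log2 change 1.76 and 1.42; limma adjusted p = 1.78e-04 and 6.9e-05). TNF lowered 6 and IL-1β 7 of 12 COL1A1 members, by at most 0.78 and 0.89 on the log2 scale. Of 258 members at TGF-β, matrix and contractile genes TNF raised 11 (4.26% against 2.59% of all tested peaks) and lowered 10 (3.88% against 1.47%), and IL-1β raised 4 (1.55% against 1.44%) and lowered 33 (12.8% against 1.7%). Of 24 members deposited as WTAP, in exons of WTAP and of SOD2, the mitochondrial superoxide dismutase, both raised 7 and lowered 2.

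IL-1β and TNF were compared directly, and 238 members differed (0.871%, against 1.23% of all tested peaks), 46 higher under IL-1β (background 0.22%) and 192 higher under TNF (background 1.01%). The count was 156 and 154 without IL-1β replicates 2 and 4 and 144 without TNF replicate 2. The doses differed, at 0.1 and 10 ng/ml, so the cytokine and its dose cannot be told apart. A member in the 3′ UTR of SELENOK, a selenoprotein of the endoplasmic reticulum (deposited as ACTR8), had 1.38, 1.74, 2.53 and 2.43 per Mb under IL-1β and 11.9, 6.34, 12.4 and 12 under TNF. The TNF libraries were the higher ones (log2 difference -2.13 ± 0.39; limma adjusted p = 6.55e-05). The first exon of ELF3, an ETS factor best known from epithelia, went the other way, at 7.6, 6.98, 9.27 and 9.65 per Mb under IL-1β against 2.2, 2.04, 2.26 and 1.29 under TNF. Here the IL-1β libraries were the higher ones (log2 difference 1.87 ± 0.37; limma adjusted p = 4.04e-04).

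**Figure D4:**
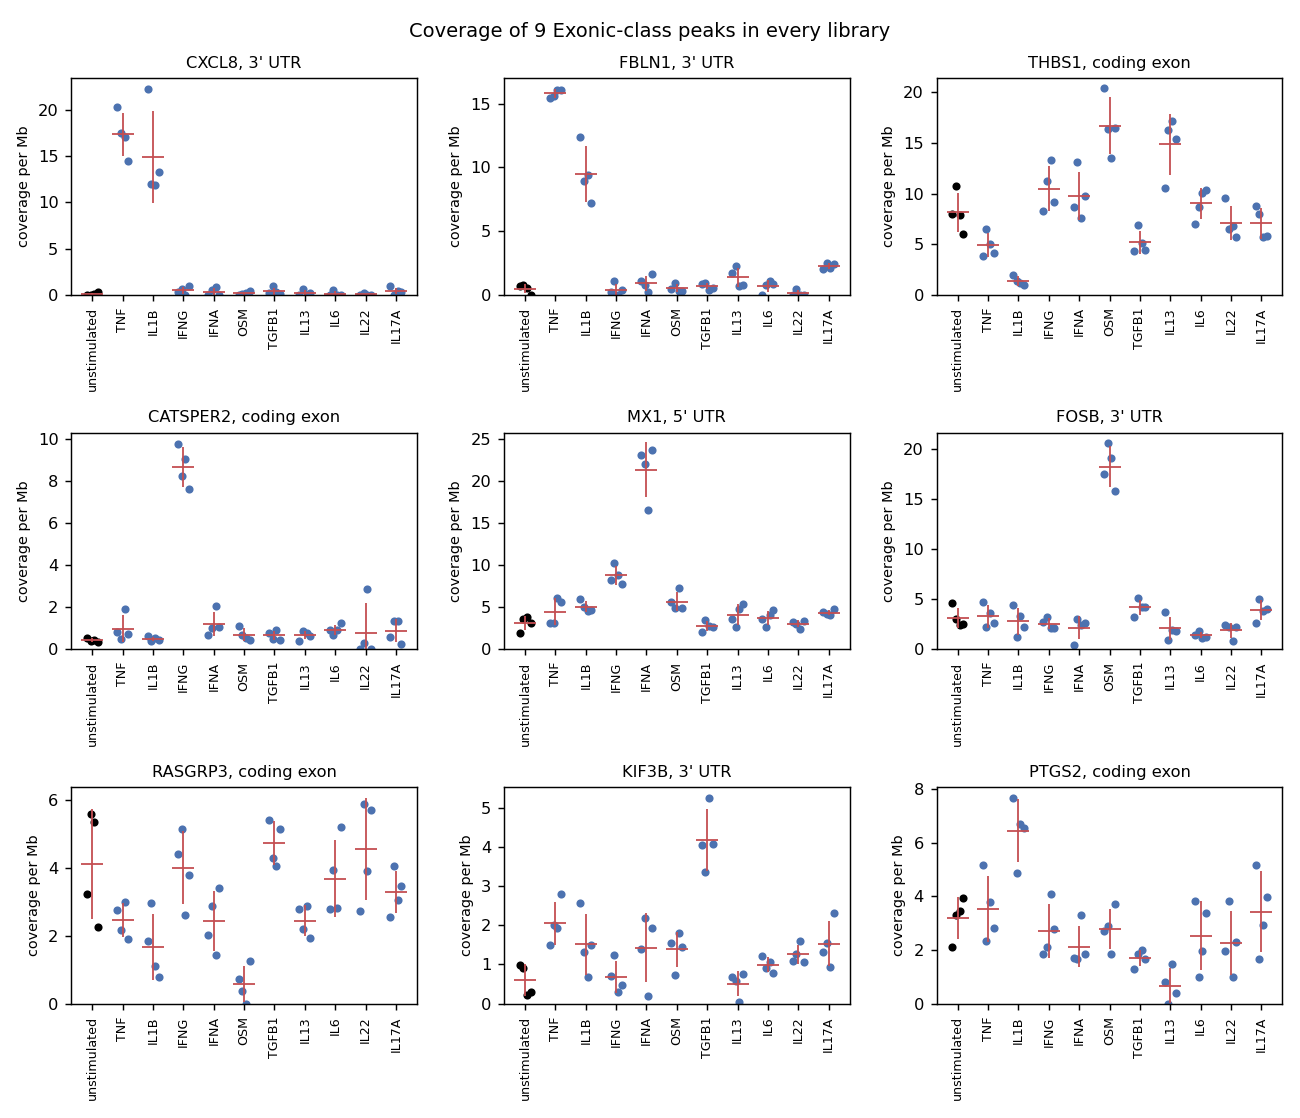
Coverage per Mb of 9 Exonic-class peaks in every library (points), with the mean and SD of the 4 libraries of each group in red and unstimulated libraries in black. CXCL8 and FBLN1 stand high under TNF and IL1B, CATSPER2 under IFNG, MX1 under IFNA, FOSB under OSM and KIF3B under TGFB1, while THBS1 is low under IL1B and PTGS2 under IL13.

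IFNγ raised members at antigen presentation and interferon genes, and IFNα raised a smaller set. Of 103 members at antigen presentation genes IFNγ raised 23 and lowered none, while IFNα raised 4 (22.3% and 3.88% raised, against 1.36% and 0.339% of all tested peaks). Of 121 members at interferon-stimulated genes IFNγ raised 25 and lowered none, and IFNα raised 15 and lowered 1 (20.7% and 12.4% raised). The leading IFNγ member lay at GBP5, a guanylate-binding protein of host defence (chr1:89271578-89272078), with 0.406, 0, 1.51 and 0.83 per Mb in unstimulated libraries and 11.6, 11.3, 11.2 and 12.1 under IFNγ. IFNα gave 1.95, 2.72, 2.09 and 4.31 per Mb, above unstimulated cells and below IFNγ in every library (log2 change 3.52 ± 0.35 and 1.58 ± 0.35; limma adjusted p = 7.95e-17 and 0.00392).

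The CATSPER2 member whose ISRE letters are shown above (deposited as STRC, chr15:43638665-43639165) had 0.536, 0.376, 0.446 and 0.35 per Mb in unstimulated libraries and 9.76, 8.25, 9.04 and 7.61 under IFNγ. All unstimulated libraries were under the level of 3 reads, so IFNγ coverage was at least 15.7-fold higher (log2 change 3.3 ± 0.38; limma adjusted p = 1.54e-12). IFNα libraries, at 0.678, 1, 2.03 and 1.06 per Mb, were above the unstimulated ones but the difference was not called. CATSPER2 and STRC have near-identical pseudogene copies nearby, so reads there may be split and the level is uncertain. The CUL5 member (deposited as ACAT1, chr11:108069904-108070404), in a gene for a ubiquitin ligase scaffold, rose under both interferons, from 1.11, 0.409, 1.1 and 1.86 per Mb to 5.76, 9.3, 5.27 and 3.2 under IFNα and 4.41, 8.98, 8.08 and 7.79 under IFNγ. The ranges of the interferon groups overlapped with each other (log2 change 1.97 ± 0.32 and 2.31 ± 0.32; limma adjusted p = 6.79e-06 and 5.11e-09).

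The strongest IFNα member was the first exon of MX1, an antiviral dynamin-like GTPase (chr21:41425999-41426499), at 1.98, 3.55, 3.89 and 3.08 per Mb in unstimulated libraries, 23.1, 22.1, 16.6 and 23.7 under IFNα and 8.21, 10.3, 8.84 and 7.78 under IFNγ. The 3 groups did not overlap (log2 change 2.61 ± 0.24 and 1.38 ± 0.24; limma adjusted p = 6.14e-18 and 1.07e-05). The leading lowered member under IFNα lay at PLSCR1, a phospholipid scramblase that interferon induces. It fell from 4.04, 2.85, 3.14 and 4.5 to 0.609, 1.57, 1.25 and 0.384 per Mb, without overlap (log2 change -1.57 ± 0.33; limma adjusted p = 0.00174). Under IFNγ its coverage was 1.76, 2.32, 1.23 and 1.15 per Mb, also below every unstimulated library. This member was also called lowered under TNF, IL-1β and OSM (log2 change -1.32, -1.53 and -1.28). The leading IFNγ member that fell was a coding exon of EPS8, an actin-capping signalling adaptor, from 2.86, 1.52, 2.01 and 1.63 to 0.324, 0.456, 0.265 and 0.176 per Mb (log2 change -1.62 ± 0.35; limma adjusted p = 0.00116).

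IFNα and IFNγ, given at the same dose, differed directly at 228 members (0.834%, against 1.02% of all tested peaks), of which 40 were higher under IFNα (background 0.186%) and 188 higher under IFNγ (background 0.837%). The count was 148 without IFNα replicate 4 and 143 without IFNγ replicate 3. A member at SLC15A3, a lysosomal peptide transporter, had 0.678, 1.49, 1.17 and 0.833 per Mb under IFNα and 9.81, 12.6, 11.1 and 7.04 under IFNγ. The IFNγ libraries were the higher ones (log2 difference -2.79 ± 0.32; limma adjusted p = 1.16e-11). Members at IDO1, which degrades tryptophan, and APOL4 were the next furthest towards IFNγ (log2 difference -2.69 and -2.64; limma adjusted p = 8.19e-09 and 1e-10).

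OSM raised members of immediate early genes. Of 113 members at AP-1 and immediate early genes 21 were raised (18.6%, against 3.29% of all tested peaks) and none lowered, with a median log2 change of 0.22 over the list. The 4 largest of these changes were neighbouring peaks of FOSB, so the calls are not all separate loci. A 3′ UTR member of FOSB, an AP-1 subunit (deposited as ERCC1, chr19:45473759-45474259), had 4.6, 3.05, 2.45 and 2.52 per Mb in unstimulated libraries and 17.5, 20.6, 19.1 and 15.8 under OSM. The OSM libraries were the higher ones (log2 change 2.39 ± 0.29; limma adjusted p = 4.24e-11). A member in the 3′ UTR of GUCY1B1, a subunit of the nitric oxide receptor guanylate cyclase (deposited as TDO2), rose from 2.02, 1.39, 0 and 0.605 to 6.24, 8.51, 7.73 and 5.1 per Mb (log2 change 2.51 ± 0.34; limma adjusted p = 4.54e-09). Of 99 members at gp130 and STAT3 genes OSM raised 12 (12.1%) and lowered 2 (2.02%, against 1.06% of all tested peaks). Among them was SOCS3, the feedback inhibitor of gp130 signalling, raised at 2 3′ UTR members (log2 change 1.61 and 1.23; limma adjusted p = 2.33e-05 and 4.23e-05). The 2 lowered members lay in exons of SERPINA1, 1 of them deposited as SERPINA2 (log2 change -1.42 and -1.37; limma adjusted p = 0.0144 and 0.0178). Their OSM libraries were all under the level of 3 reads, and each call was lost under 2 of 18 alternatives. The leading lowered member was a coding exon of RASGRP3, a Ras guanine nucleotide exchange factor (chr2:33516375-33516875), at 3.23, 5.61, 5.35 and 2.27 per Mb in unstimulated libraries and 0.73, 0.384, 0 and 1.25 under OSM (log2 change -2.15 ± 0.3; limma adjusted p = 8.22e-09).

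IL-6, which shares gp130 with OSM, went the other way at FOSB. The last coding exon of FOSB (chr19:45472583-45473083) had 4.7, 2.61, 5.3 and 5.5 per Mb in unstimulated libraries, 1.84, 1.41, 0.863 and 0.473 under IL-6 and 13.1, 16.9, 12.5 and 16 under OSM. The unstimulated libraries lay between the other groups without overlap (log2 change -1.64 ± 0.27 for IL-6 and 1.62 ± 0.27 for OSM; limma adjusted p = 0.00166 and 3.09e-06). IL-6 lowered 6 of the 113 immediate early members (5.31%, against 0.026% of all tested peaks) and raised none. The 4 largest of these falls lay at FOSB and NR4A1, so here too neighbouring peaks were counted singly. The 23 IL-6 calls numbered 5 without IL-6 replicate 4, the shallowest library, and those 5 lay at FOSB (2 members, lowered, the second deposited as ERCC1) and at LOXL1 (deposited as LOXL1-AS1), SRF and GPX4 (raised, the last centred outside any annotated exon). Of these only the coding member of FOSB kept its IL-6 call under all 19 alternatives run. A 5′ UTR member of SRF, the serum response factor, had 6.68, 5.79, 3.9 and 5.16 per Mb in unstimulated libraries and 11.6, 11.9, 12.2 and 8.58 under IL-6 (log2 change 0.99 ± 0.21; limma adjusted p = 0.0177). This call was lost under 5 of the 19 alternatives, among them the GC correction and the fit without unstimulated replicate 3 or 4 (highest adjusted p = 0.165).

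TGF-β1 lowered 970 members and raised 177 in the main fit, a split that depended on the scaling (15.4% of calls raised, and 47.8% with loess offsets). Of the 258 members at TGF-β, matrix and contractile genes it raised 9 (3.49%, against 1.14% of all tested peaks) and lowered 9 (3.49%, against 2.58% of all tested and 3.55% of Exonic-class peaks), while IL-13 raised 14 (5.43% against 0.604%) and lowered 1. SMAD7, the inhibitory SMAD, rose at a coding member (log2 change 1.3; limma adjusted p = 0.031), a call lost under 5 of 18 alternatives, namely loess offsets and the fits without unstimulated replicate 1 or 2 or TGF-β1 replicate 2 or 3 (highest adjusted p = 0.16). A 3′ UTR member of KIF3B, a kinesin subunit (deposited as ASXL1, chr20:32332602-32333102), rose from 0.981, 0.92, 0.225 and 0.287 to 4.06, 3.35, 5.26 and 4.08 per Mb, and the GPN1 member shown above (deposited as CCDC121) from 0.36, 0.567, 0.748 and 0.892 to 5.09, 2.45, 3.43 and 2.76. TGF-β1 libraries were the higher ones at both (log2 change 2.15 ± 0.36 and 1.76 ± 0.35; limma adjusted p = 2.58e-06 and 1.68e-04). The leading lowered member lay at a non-coding first exon of RPS6KA5, the kinase MSK1 (deposited as TTC7B), at 9.45, 11.9, 13.8 and 9.24 per Mb in unstimulated libraries and 0.661, 2.84, 3.24 and 2.6 under TGF-β1. The TGF-β1 libraries were the lower ones (log2 change -2.14 ± 0.21; limma adjusted p = 7.77e-17).

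IL-13 raised 7 of 143 members at collagen genes (4.9%, against 0.604% of all tested peaks) and lowered 1. The leading raised member lay at COL6A1, a chain of type VI collagen (chr21:46000763-46001263), at 2.34, 1.2, 3.18 and 0.607 per Mb in unstimulated libraries and 7.76, 7.89, 11.4 and 9.76 under IL-13 (log2 change 2.19 ± 0.32; limma adjusted p = 2.22e-07). A coding exon of PTGS2, the inducible cyclooxygenase (chr1:186676311-186676811), fell from 2.11, 3.32, 3.45 and 3.94 to 0.805, 0, 1.49 and 0.408 per Mb, and 4 of the 5 PTGS2 members were lowered. A coding exon of NR4A1 (deposited as ATG101, chr12:52054813-52055313) had 7.2, 8.86, 8.29 and 6.94 per Mb in unstimulated libraries and 2.18, 3.26, 1.13 and 2.59 under IL-13. The IL-13 libraries were the lower ones at both (log2 change -1.8 ± 0.31 and -1.63 ± 0.26; limma adjusted p = 2.04e-05 and 3.45e-06). Of 58 members at IL-13 and STAT6 genes 1 was called, a coding exon of DPP4 (log2 change 1.32; limma adjusted p = 0.0314), or 1.72% raised against 0.604% of all tested peaks. Its unstimulated libraries were all under the level of 3 reads, and the call was lost under 7 of 18 alternatives, the fit of only the compared groups and those without unstimulated replicate 2, 3 or 4 or IL-13 replicate 1, 2 or 4 (highest adjusted p = 0.157).

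IL-22 and IL-17A raised few members. A 5′ UTR member of NFYB, a subunit of the CCAAT-binding factor NF-Y, had 1.73, 0.455, 0.524 and 0.739 per Mb in unstimulated libraries and 2.84, 3.96, 4.46 and 4.68 under IL-22 (log2 change 1.79 ± 0.3; limma adjusted p = 8.99e-04). With a GC correction IL-22 gave 1 called member in place of 30, and this NFYB call was lost (highest adjusted p = 0.0603). A member in an exon of NAMPT, the rate-limiting enzyme of NAD salvage (chr7:106276509-106277009), had 0.502 ± 0.298 per Mb (SD, n = 4) in unstimulated libraries, 1.8, 4.51, 3.23 and 2.22 under IL-17A and 4.03, 4.14, 2.19 and 4.45 under OSM. Both groups lay above the unstimulated libraries (log2 change 1.77 ± 0.39 and 2.08 ± 0.39; limma adjusted p = 0.0361 and 3.74e-05). The IL-17A call was lost without unstimulated replicate 1, 3 or 4 or IL-17A replicate 1, 2 or 3 (highest adjusted p = 0.346). IL-17A calls numbered 0 without IL-17A replicate 3. With all libraries 1929 of 27335 members had an unadjusted p under 0.05 by limma, as had 25582 of all 407162 tested peaks.

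Some genes carried many called members, counted here by the deposited gene. THBS1, which encodes the matrix glycoprotein thrombospondin-1, held 18 members that did not overlap each other, some in exons of FSIP1 or THBS1-AS1 (chr15:39582326-39601164). Their summed coverage was 134, 156, 145 and 119 per Mb in unstimulated libraries, 43.8, 32.8, 34.4 and 37.9 under IL-1β, 83, 84.2, 77.5 and 72.7 under TNF, 384, 396, 353 and 354 under OSM and 252, 194, 253 and 251 under IL-13. The 5 groups did not overlap. IL-1β lowered 17 of the 18 members and TNF 10, while OSM raised all 18 and IL-13 raised 11, and no THBS1 member was called the other way in these comparisons, which share their unstimulated libraries. In the coding exon at chr15:39589035-39589535 the coverage was 7.95, 10.7, 7.9 and 6.04 per Mb in unstimulated libraries and 1.97, 1.38, 1.11 and 0.927 under IL-1β (log2 change -2.23 ± 0.21; limma adjusted p = 9.59e-18).

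The 12 members deposited as ATG101 lay in exons of ATG101, NR4A1 and NR4A1AS, and their sum was 95.7, 109, 101 and 101 per Mb in unstimulated libraries. It was 78.1, 65.9, 67.3 and 67.7 under TNF, 72.2, 65.8, 66.6 and 57.6 under IL-1β and 65.9, 59, 60.6 and 61.7 under IL-13, each group below the unstimulated libraries. The sums under TGF-β1 (77.8, 78.8, 70.8 and 63.8) and IL-6 (85, 70.4, 77.5 and 50) also lay below them. Of the 12 members TNF lowered 7, IL-1β 6, IL-13 4, IL-6 2 and TGF-β1 1. IRF1, the interferon regulatory factor, held 21 members (some in exons of IRF1-AS1), of which IFNγ raised 12, with sums of 28.2, 31.1, 37.3 and 30.4 in unstimulated libraries, 111, 113, 117 and 113 under IFNγ and 33.6, 36.3, 36.1 and 35.8 under IFNα. The IFNγ sums stood apart from both other groups, which overlapped, and no IRF1 member was called under IFNα. ADAMTS1, a secreted metalloproteinase, held 12 members, of which TGF-β1 lowered 10, with sums of 81.1, 95.7, 78.3 and 75.4 in unstimulated libraries and 39, 39.7, 37.2 and 36.4 under TGF-β1. MAT2A, which makes S-adenosylmethionine, held 15 members (some in exons of GGCX), of which OSM raised 11 and TGF-β1 lowered 5. Its sums were 83.1, 94.3, 82.7 and 79.9 in unstimulated libraries, 178, 186, 158 and 169 under OSM and 60.4, 74.9, 54.9 and 57.3 under TGF-β1, without overlap among the 3 groups.

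**Figure D5:**
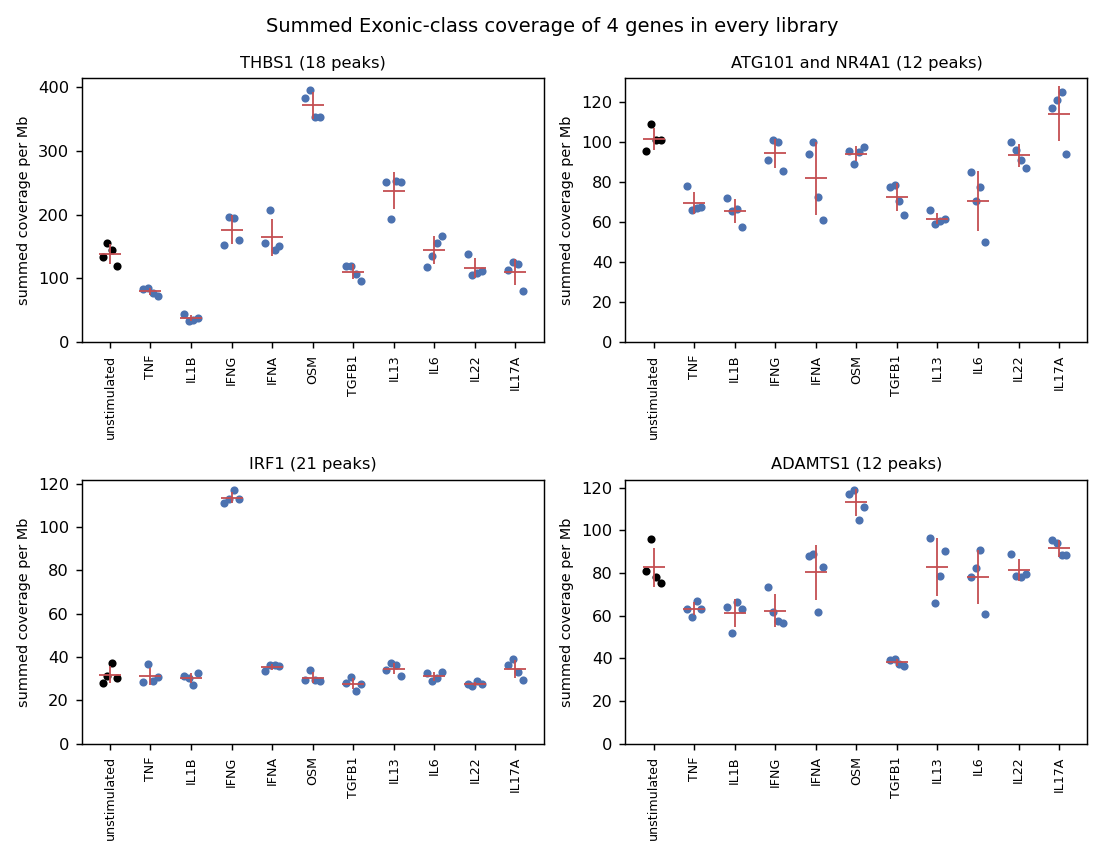
Summed coverage per Mb of the Exonic-class peaks deposited under 4 genes in every library (points), with the mean and SD of each group in red and unstimulated libraries in black. THBS1 is lowest under IL1B (mean 37.2) and highest under OSM (mean 372), IRF1 stands high under IFNG (mean 114), the ATG101 and NR4A1 sum is low under TNF, IL1B, IL13, IL6 and TGFB1, and ADAMTS1 is low under TGFB1 (mean 38.1).

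Called members were set beside a Promoter-class peak of the gene of their exon. Of members raised by TNF, 383 lay in a gene that also had a tested Promoter-class peak, and that peak was raised for 35 (9.14%), lowered for 7 and not called for 341, at a median distance of 25 kb. Over all 20993 such pairs the promoter peak was raised by TNF in 2.04%. For IL-1β 40 of 334 lowered members (12%) had a lowered promoter peak, against 1.6% of all pairs. For IFNγ 27 of 270 raised members (10%) had a raised promoter peak, against 1.89% of all pairs. For OSM 125 of 786 raised members (15.9%, against 10.3%) and for TGF-β1 116 of 659 lowered members (17.6%, against 11%) shared the direction of a called promoter peak. In these 5 sets the paired promoter peak was not called, or was called the other way, for more than 80% of the members. In other sets the called promoter peaks had mostly the opposite direction, as they had over all pairs. Of 152 members lowered by OSM, 2 (1.32%) had a lowered and 12 a raised promoter peak. Over all pairs OSM lowered 0.438% and raised 10.3% of the promoter peaks. Of 131 members raised by TGF-β1, 0 had a raised and 9 a lowered one. Over all pairs TGF-β1 raised 0.286% and lowered 11%.

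Markers of other cell types had few members. Immune genes had 14 tested members, none called under any cytokine by limma, with 0 to 3 at an unadjusted p under 0.05. Of 13 epithelial members IL-1β raised 1 (ELF3) and lowered 1 (a coding exon of CDH1, deposited as TANGO6), 15.4% against 3.14% of all tested peaks, and IL-6 lowered 1 (an exon of USP37, deposited as VIL1). The CDH1 call was lost without unstimulated replicate 2 or 3 or IL-1β replicate 2 or 4, and the USP37 call under 10 of 19 alternatives. Of 24 endothelial members IL-1β raised 1, which lay in CDC45 and was deposited as CLDN5, a call lost without IL-1β replicate 4 (adjusted p = 0.0532 by limma). Of 141 members at fibroblast identity genes TNF raised 4 (2.84% against 2.59% of all tested peaks) and lowered 9 (6.38% against 1.47%), IL-1β raised 3 (2.13% against 1.44%) and lowered 12 (8.51% against 1.7%), and IL-13 raised 5 (3.55% against 0.604%).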

How the data were processed

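Chromatin accessibility was measured by ATAC-seq in 44 libraries. The authors aligned reads to hg38 and called peaks with MACS2, per the labels and the study's methods. The deposited values are a coverage signal: the bases of reads over a peak were added up, without scaling to library size, so they are no read counts. Its most frequent low value was 75 (15.5% of values above 0 and under 150), used here as the read length in bases. Coverage follows whole reads, so a cut near a peak's edge can add to it. The study's methods describe fixed-width peaks of this size made with ArchR from its single-cell data; whether the deposited matrix uses that set, and how its classes were assigned, is not given in the sources used here. Columns were matched to samples by the library number in the labels.

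Coverage was divided by library total in Mb and by a factor for composition, from log ratios averaged after dropping 30% of the ratios and 5% of the means at both ends. Log2 was taken after adding 0.5, so changes of low peaks are understated. The form of the factor was set after counts of calls had been seen, to follow the processing described earlier for the series. Peaks with a log2 mean of -3 or below were left out. All 44 libraries entered limma 3.58.1 (R 4.3.3) with group as the only term and a mean-variance trend, and p-values were adjusted by Benjamini-Hochberg over all tested peaks of a contrast. A peak was called at an adjusted p under 0.05. The fit was tested on simulated data. Exact permutation tests used scipy, and exons came from GENCODE v44, with coding sequence taken before UTRs where transcripts differ.

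The members and gene lists were chosen with earlier results of these data known. Named peaks were, per cytokine, the 5 raised and 5 lowered called members with the largest log2 change (1 per gene, mean of at least 1 per Mb, no overlap between the 4 treated and 4 unstimulated libraries), for IL-6 also in a fit without IL-6 replicate 4, up to 4 called members per gene list, up to 6 genes per contrast with 3 or more called members, the 10 members with the largest moderated F, and 3 per direction in the direct contrasts. A subset is described. A member counted for a list where its deposited gene or the gene of its exon was listed. Floors of 3 reads per library cover counting error only. Alternatives were library totals, median-of-ratios factors, loess offsets, a GC correction, a pseudocount of 2, other filters, a replicate block, fits of only the compared groups, and leaving out each library.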

Additional observations from a re-analysis of the deposited data

Results flagged for a closer look

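The value of one library stood far from the other 3 of its group in 6 of 109 groups of 4 values examined (the gap to the nearest value, divided by the group's range, exceeded Dixon's 95% critical value), and chance flags about 1 in 20. The ratio was 0.865 for the CXCL8 3′ UTR peak under IL-1β (22.3 per Mb in replicate 1 against 11.9 to 13.3), 0.915 for the NR4A1 coding peak under IL-1β (5.11 in replicate 2), 0.834 for the SRF 5′ UTR peak under IL-6 (8.58 in replicate 4, the shallowest library) and 0.917 for the SELENOK 3′ UTR peak under TNF (6.34 in replicate 2). It was 0.966 for the THBS1 sum under IL-13 (194 in replicate 2 against 251 to 253) and 0.852 for the sum of the 12 peaks deposited as ATG101 under TNF (78.1 in replicate 1).

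The effects of IFNα and IFNγ differed at 228 Exonic-class peaks, and those of IL-1β and TNF at 238, each by limma's test of the difference itself. For the latter pair the doses differ.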

How the results depend on the processing

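Depth differed between libraries, and the shallowest, IL-6 replicate 4, had no coverage in 20.6% of Exonic-class peaks. Of 183 named peak results 128 kept their call under every alternative run, 55 lost it under at least 1 and none changed direction. The cause of the moves below was not tested, except that leaving out members or libraries leaves less to call.

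Without members within 1 kb of a start site the calls numbered 501 for TNF, 428 for IL-1β, 199 for IFNγ, 89 for IFNα, 521 for OSM, 144 for IL-13, 421 for TGF-β1, 6 for IL-6, 2 for IL-22, 2 for IL-17A, 133 for IFNα minus IFNγ, 153 for IL-1β minus TNF and 2597 for any difference. OSM gave 708 with library totals, 681 with median-of-ratios factors, 688 with a composition factor from peaks covered in every library (an alternative chosen after seeing the data), 557 with loess offsets and 2250 with only the compared groups, and TGF-β1 573 with loess offsets. IL-6 gave 44, 44, 44 and 56 with the first 4 of these, 14 with a GC correction and 3 with only the compared groups. IL-22 gave 18 with loess offsets, 1 with a GC correction, also with the replicate block, and 78 with only the compared groups. IL-17A gave 19, 19, 18 and 20, then 6 with a GC correction, 7 with a higher filter and 29 with only the compared groups. IL-1β minus TNF gave 395 with only the compared groups.

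The Exonic-class share (cytokine minus unstimulated, percentage points) without members within 1 kb was -0.0443 for TNF, 0.0241 for IL-13 and 0.0128 for IL-6, no longer passing, and reversed to -0.061 for OSM, 0.0369 for TGF-β1, -0.0938 for IL-22 and 0.00318 for IFNγ. With the higher filter it was -0.278 for TNF, 0.0145 for OSM, 0.23 for IL-13, -0.421 for TGF-β1, 0.133 for IL-6 and 0.0215 for IL-22, none passing adjustment, and -0.00635 for IL-17A, reversed. The smallest exact permutation p was kept by TNF, OSM and IL-22 without members within 1 kb. With the higher filter TNF, IL-13, TGF-β1 and IL-6 kept it. Passing adjustment then depends on how many cytokines reach it.

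Leaving out each library in turn gave 659 to 726 calls for TNF, 543 to 700 for IL-1β, 310 to 361 for IFNγ, 102 to 186 for IFNα, 691 to 1062 for OSM, 180 to 277 for IL-13, 759 to 957 for TGF-β1, 5 to 44 for IL-6, 9 to 22 for IL-22, 0 to 17 for IL-17A, 143 to 225 for IFNα minus IFNγ, 144 to 228 for IL-1β minus TNF and 5187 to 6223 for any difference. The share differences then ranged from -0.242 to -0.17 for TNF, -0.0866 to -0.00569 for IL-1β, -0.0417 to -0.0026 for IFNγ, -0.0731 to 0.0788 for IFNα, 0.235 to 0.274 for OSM, 0.231 to 0.28 for IL-13, -0.565 to -0.49 for TGF-β1, 0.153 to 0.192 for IL-6, 0.0914 to 0.145 for IL-22 and -0.00141 to 0.0771 for IL-17A.

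Deviations of same-numbered libraries correlated at a median of 0.0019 (-0.0615 to 0.0465), against -0.00083 for libraries of other numbers. Of the 44 libraries 21 were closest to their own number among the 4 numbers, which is above an even split. Whether the numbers mark a weak pairing was not tested. A replicate block gave 878 calls for TNF, 798 for IL-1β, 443 for IFNγ, 1299 for OSM and 1185 for TGF-β1.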
